A study of Mus musculus with 36 samples.

Results

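The genes described here are 39 named genes of the lysosome and of autophagy, followed in mouse kidney across 2 genotypes and 3 doses of cadmium chloride. They were taken by symbol from a list that was chosen with earlier results of these data known. The role, pathway and marker lists were chosen in the same way, so shares called in any list are not an independent test. Each of the 39 symbols matched 1 gene identifier among the 55536 annotated genes. All 39 passed the filter on low counts and stand among the 18180 genes tested. By role they are 7 acid proteases, 7 lysosomal membrane proteins, 11 glycan and sulfate hydrolases, 4 lipid-handling and soluble helper proteins, 3 transcription factors of the MiT/TFE family, 3 genes that start autophagy, and 4 genes for autophagosome ATG8 proteins and their cargo receptor.

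The data are read counts per gene from RNA libraries of snap-frozen kidney, 36 in all, 6 in each of 6 groups. Normal C57BL/6 mice (b6j) and ob/ob mice (ob), which lack working leptin and become obese and insulin resistant, were left untreated or were given CdCl2 at 0.5 or 2 mg/kg. The labels name C57BL/6 as the strain of every mouse, and sex, age, route and length of exposure are not given in the sources used here. The series is titled for a signature of kidney damage by long-term cadmium, and the comparisons here ask how the lysosomal and autophagy transcripts differ by dose and genotype. Every p-value rests on the spread between libraries labelled as replicates, which the labels do not describe further. That spread was estimated over all 6 groups together, so a p-value also reflects groups outside its comparison. The kidney was measured in bulk, so a fall in a transcript from fewer cells of a type cannot be told apart from less RNA per cell.

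Lysosomes are acidic compartments that digest material delivered by endocytosis and by autophagy, in which a double membrane encloses cytoplasm and fuses with the lysosome. TFEB, TFE3 and MITF are kept in the cytoplasm by active mTORC1 and, once in the nucleus, bind a short motif in the promoters of many lysosomal genes. In the kidney, proximal tubule cells take up filtered proteins, including metallothionein with its bound cadmium, by megalin and cubilin and break them down in lysosomes.

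The libraries held 26783936 to 37244058 counted reads, at which 3 reads are worth 0.0851 to 0.112 CPM, a gene's share of a library's counts at a fixed total. Mt1, a metallothionein induced by cadmium, lay between 91.1 and 150.2 CPM in the 12 untreated libraries and between 1150.3 and 5414 CPM in the 24 treated ones, so no treated library fell in the untreated range. The library ob_Cd2 replicate 5 stood apart from all others: the 10 proximal tubule markers summed to 2021 CPM in it, against a median of 10621 CPM in its group, and it held 132.02 on the second principal component. Results that rest on it are given with and without it. Library size alone in place of the trimmed mean of M values (TMM) shifts the median log2 change of all genes to 0.16 for untreated ob against b6j, to -0.11 for the low dose in ob and to 0.12 for the high dose in b6j and for the high against the low dose in either genotype. Calls and directions that this changes are named only in part.

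The 39 genes moved with cadmium mainly upward, and more of them were called higher at the low dose in ob than in b6j. The log2 change at that dose was above 0 for 34 of 39 in b6j and 33 in ob. Of the 18180 genes tested it was above 0 for 9380 and 8721. With library size alone it was above 0 for 31 of 39 in b6j and 26 in ob, and for 9051 and 5586 of all genes. The member medians were then 0.09 and 0.13, against -0.0003 and -0.11 over all genes. In ob 13 were then called higher, with 2.35% of all genes. In b6j at 0.5 mg/kg 2 of 39 were higher than in untreated b6j and 0 lower, with 0.297% of all genes tested called higher and 0.0275% lower. In ob at the same dose 15 of 39 were higher and 0 lower, with 3.55% of all genes called higher and 0.737% lower, or 4.28% in either direction. At 2 mg/kg 14 were higher and 1 lower in b6j, where 12.3% of all genes were called higher and 11.4% lower, and 18 were higher and 3 lower in ob, where 20.4% and 18% of all genes were called, or 38.4% in all. A gene was called at an edgeR adjusted p below 0.05. The median log2 change of the 39 was 0.10 in b6j and 0.23 in ob at 0.5 mg/kg, and 0.12 and 0.19 at 2 mg/kg, against 0.00, -0.01, 0.02 and 0.01 over all genes tested. Without ob_Cd2 replicate 5 the counts of higher and lower members at 0.5 mg/kg were 4 and 0 in b6j and 20 and 0 in ob, where 0.691% and 6.65% of all genes were called higher, 0.163% and 3.04% lower, and 0.854% and 9.68% in all. The 5 further genes in ob were Cd63, Man2b1, Hexa, Grn and Neu1, with log2 changes of 0.22 to 0.38. At 2 mg/kg the counts without it were 16 and 5 in b6j and 18 and 4 in ob, with 17% and 17.7% of all genes called higher and lower in b6j (34.8% in all) and 19.1% and 18.9% in ob (38% in all).

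**Figure D1:**
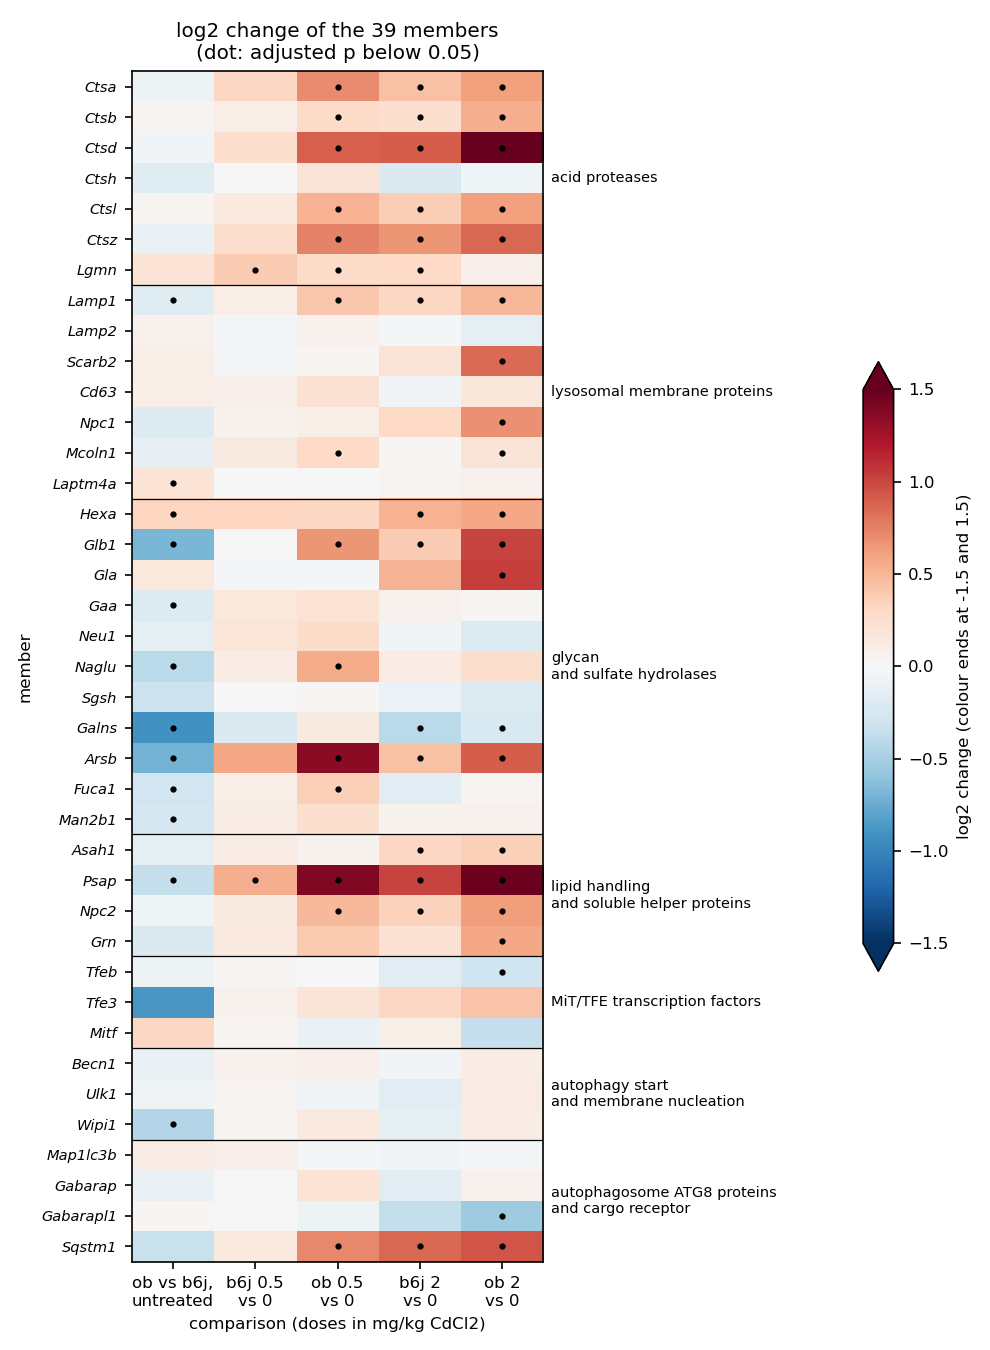
The log2 change of each of the 39 genes (rows, grouped by role) in 5 comparisons (columns), with colour from blue for lower to red for higher and a dot for an edgeR adjusted p below 0.05. Acid proteases carry 6 dots each in the columns of ob at 0.5 mg/kg and b6j at 2 mg/kg, and the MiT/TFE and autophagy-start rows hold a dot for Tfeb in ob at 2 mg/kg and one for Wipi1 in untreated ob against b6j.

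The summed level of the 39 genes also had higher medians at higher dose, given here in CPM. Untreated b6j libraries summed to 11929 to 12904 (median 12306), those at 0.5 mg/kg to 13165 to 15978 (median 13864) and those at 2 mg/kg to 15086 to 17006 (median 16059). Untreated ob libraries summed to 10742 to 11991 (median 11336), those at 0.5 mg/kg to 14984 to 18087 (median 16417) and those at 2 mg/kg to 14971 to 18357 (median 17134). In both genotypes the untreated and treated ranges did not overlap, and those of the 2 doses overlapped in each. The sum is weighted to the most abundant members, above all Psap.

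Promoter stretches of 8 members called higher in ob at 0.5 mg/kg are shown because they hold the letters counted in the next paragraph and belong to the members the results turn on. They were read 5' to 3' on the strand of the gene from RefSeq windows of GRCm38.p6 that run from 250 bases before to 50 bases after the RefSeq gene start. Each line ends 1 base before that start, except those of Ctsz and Naglu, which run from position -160 to position -41. Capitals mark CACGTG, its longer form TCACGTGA, or TGACNNNGC on either strand.
Psap (chr10:60277508-60277627, plus strand): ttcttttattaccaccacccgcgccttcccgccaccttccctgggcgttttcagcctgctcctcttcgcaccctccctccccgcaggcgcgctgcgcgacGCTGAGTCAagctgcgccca
Ctsd (chr7:142387828-142387947, minus strand): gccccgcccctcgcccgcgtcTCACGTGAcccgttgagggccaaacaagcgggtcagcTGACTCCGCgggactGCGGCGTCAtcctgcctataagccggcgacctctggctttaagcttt
Ctsa (chr2:164833653-164833772, plus strand): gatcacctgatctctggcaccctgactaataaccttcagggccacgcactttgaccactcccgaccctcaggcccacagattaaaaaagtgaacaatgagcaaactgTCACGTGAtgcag
Ctsz (chr2:174439080-174439199, minus strand): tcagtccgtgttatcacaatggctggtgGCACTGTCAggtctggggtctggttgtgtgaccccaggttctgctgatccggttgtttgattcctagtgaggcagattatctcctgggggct
Lamp1 (chr8:13159041-13159160, plus strand): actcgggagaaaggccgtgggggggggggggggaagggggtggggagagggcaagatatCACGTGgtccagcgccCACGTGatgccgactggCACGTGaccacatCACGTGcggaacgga
Glb1 (chr9:114400958-114401077, plus strand): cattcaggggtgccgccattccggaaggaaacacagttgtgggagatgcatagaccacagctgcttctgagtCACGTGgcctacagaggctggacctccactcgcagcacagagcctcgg
Mcoln1 (chr8:3500399-3500518, plus strand): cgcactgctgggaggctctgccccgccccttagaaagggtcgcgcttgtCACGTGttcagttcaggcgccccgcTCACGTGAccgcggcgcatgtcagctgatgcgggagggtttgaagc
Naglu (chr11:101069934-101070053, plus strand): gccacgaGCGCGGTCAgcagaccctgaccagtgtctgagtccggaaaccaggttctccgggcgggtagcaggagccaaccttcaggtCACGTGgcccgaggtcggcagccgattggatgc

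CACGTG is the core E-box, a palindrome, and TCACGTGA is its longer form, the core of the motif that MiT/TFE factors bind. TGACNNNGC is the core of the antioxidant response element bound by NRF2, and each TCACGTGA also counts as a CACGTG. A window was at hand for 33 of the 39 members. CACGTG stood in 11 of the 33 (33.3%), against 2187 of 27025 genes (8.09%). TCACGTGA stood in 4 (12.1%), against 304 genes (1.12%), and TGACNNNGC in 8 (24.2%), against 3781 genes (14%). Lamp1 held 4 copies of CACGTG, at positions -61, -45, -28 and -15, and Ctsd held both TCACGTGA and TGACNNNGC. Of the 14 members called higher in ob at 0.5 mg/kg that have a window, 8 held CACGTG, 3 TCACGTGA and 4 TGACNNNGC. Of the 19 members with a window that were not called there, 3 held CACGTG, 1 TCACGTGA and 4 TGACNNNGC. These are matches of letters in a fixed window. Binding was not measured. Every printed stretch was picked both by its gene's values in ob at 0.5 mg/kg and for holding such letters. Those of Lamp1 and Glb1, which hold CACGTG alone, were added after their values were seen.

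In untreated b6j kidney the members spanned a wide range of level per gene length. Psap, which encodes the precursor of the saposins that help enzymes reach sphingolipids, had a median of 681 RPKM, which is CPM per kilobase of exon, followed by the membrane protein Lamp1 at 431 RPKM, Gabarapl1 at 349 RPKM and the asparagine-specific protease legumain (Lgmn) at 295 RPKM. Gabarapl1 shares 28.3% of its exon bases with 1700101I11Rik on the opposite strand, and counting ignored strand. The least abundant were Gla at 1.15 RPKM and Npc1 at 1.59 RPKM. In untreated b6j the Lamp1 and Gabarapl1 ranges did not overlap (408 to 451 and 333 to 366 RPKM), and neither did those of Psap and Lamp1. In ob at 0.5 mg/kg Psap reached a median of 1412 RPKM, with Lamp1 next at 503 RPKM.

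Of the 7 acid proteases 1 was called higher for b6j at 0.5 mg/kg, 6 for b6j at 2 mg/kg, 6 for ob at 0.5 mg/kg and 5 in ob at 2 mg/kg, where 0.297%, 12.3%, 3.55% and 20.4% of all genes were called higher. With all libraries none was called lower against control. Ctsh, cathepsin H, was not called higher at any of these points, and Lgmn was not called in ob at 2 mg/kg. The change of Ctsh in b6j at 2 mg/kg was -0.21 ± 0.08, not called, and it was called lower without ob_Cd2 replicate 5 (-0.22, edgeR adjusted p 0.00496) and without b6j_control replicate 4 (-0.27, edgeR adjusted p 0.0137). Ctsd encodes cathepsin D, an aspartic protease. Its lowest, median and highest levels in b6j were 309, 347 and 359.6 CPM untreated, 353, 379.6 and 546 CPM at 0.5 mg/kg, and 590.4, 640.1 and 701 CPM at 2 mg/kg. In ob they were 301, 339.9 and 352 CPM untreated, 566, 613 and 702 CPM at 0.5 mg/kg, and 794, 843 and 1781 CPM at 2 mg/kg. In ob the 3 doses were fully separated, whereas in b6j only the libraries at 2 mg/kg lay wholly above the others. The log2 change was 0.91 ± 0.13 (standard error) for b6j at 2 mg/kg, 0.89 ± 0.13 for ob at 0.5 mg/kg and 1.58 ± 0.13 in ob at 2 mg/kg, or 1.88-fold, 1.86-fold and 2.99-fold (edgeR adjusted p 2.69e-06, 1.45e-05 and 2.4e-11). In b6j at 0.5 mg/kg it was 0.26 ± 0.13 and was not called. The highest value, 1781 CPM, was that of ob_Cd2 replicate 5, which the 2.99-fold change includes. Leaving it out lowered the change between the doses in ob from 0.69 to 0.46.

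Ctsz encodes cathepsin Z, an exopeptidase. It stood at 148, 168 and 183 CPM in untreated b6j, 173, 189 and 246 CPM at 0.5 mg/kg and 245, 260.2 and 288 CPM at 2 mg/kg. In ob it stood at 141, 159 and 167 CPM untreated, 222, 263 and 295 CPM at 0.5 mg/kg and 239, 283 and 339 CPM at 2 mg/kg. All treated ob libraries lay above all untreated ones, with log2 changes of 0.74 ± 0.08 and 0.87 ± 0.08 (edgeR adjusted p 4.91e-08 and 3.08e-10). In b6j the change was 0.66 ± 0.08 at 2 mg/kg (edgeR adjusted p 1.54e-07). At 0.5 mg/kg in b6j 5 of 6 libraries exceeded every untreated one, and the change of 0.25 ± 0.08 was not called.

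Ctsl encodes cathepsin L, a cysteine protease of broad specificity. In untreated b6j it stood at 430.3, 467 and 519 CPM, at 0.5 mg/kg at 469, 506 and 630.2 CPM, and at 2 mg/kg at 574, 607 and 645 CPM. In ob it went from 441, 487 and 514 CPM untreated to 656, 691 and 742 CPM at 0.5 mg/kg and 647, 712 and 925 CPM at 2 mg/kg. The treated ob ranges lay above the untreated one and overlapped each other. Its log2 change was 0.37 ± 0.07 for b6j at 2 mg/kg, 0.53 ± 0.07 for ob at 0.5 mg/kg and 0.61 ± 0.07 in ob at 2 mg/kg, all called.

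Lgmn was 1 of 2 members called in b6j at the low dose. Its lowest, median and highest levels were 640.5, 686 and 738 CPM in untreated b6j, 797, 883 and 1032 CPM at 0.5 mg/kg and 739, 843 and 941 CPM at 2 mg/kg. In ob they were 699, 772 and 909 CPM untreated, 814, 965 and 1127 CPM at 0.5 mg/kg and 739, 818 and 987 CPM at 2 mg/kg, so that both treated ranges overlapped the untreated one. The log2 change was 0.38 ± 0.08 in b6j at 0.5 mg/kg, 0.30 ± 0.08 for b6j at 2 mg/kg, 0.29 ± 0.08 for ob at 0.5 mg/kg and 0.08 ± 0.08 in ob at 2 mg/kg, the last not called. Without b6j_control replicate 4 the low-dose change in b6j was 0.36 and was no longer called (edgeR adjusted p 0.0756), and with library size alone that in ob was 0.19 and not called. Of the other cathepsins, Ctsa, a serine carboxypeptidase that also protects beta-galactosidase and neuraminidase, rose by 0.43 ± 0.10 in b6j at 2 mg/kg and by 0.71 ± 0.10 and 0.61 ± 0.10 in ob at the low and the high dose. Ctsb, cathepsin B, rose by 0.26 ± 0.08, 0.29 ± 0.08 and 0.55 ± 0.08 at the same points. The first of these was lost without b6j_control replicate 4 (0.22, edgeR adjusted p 0.0507) and the second with library size alone (0.19). Exon bases shared with other genes could affect these values, and counting ignored strand. Shared bases made up 34.4% of the exon bases of Ctsd, with a gene on the same strand, and 26.8% for Ctsl, with genes on both strands. For Ctsa and Ctsb they made up 17.4% and 12.8%, with genes on the opposite strand.

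**Figure D2:**
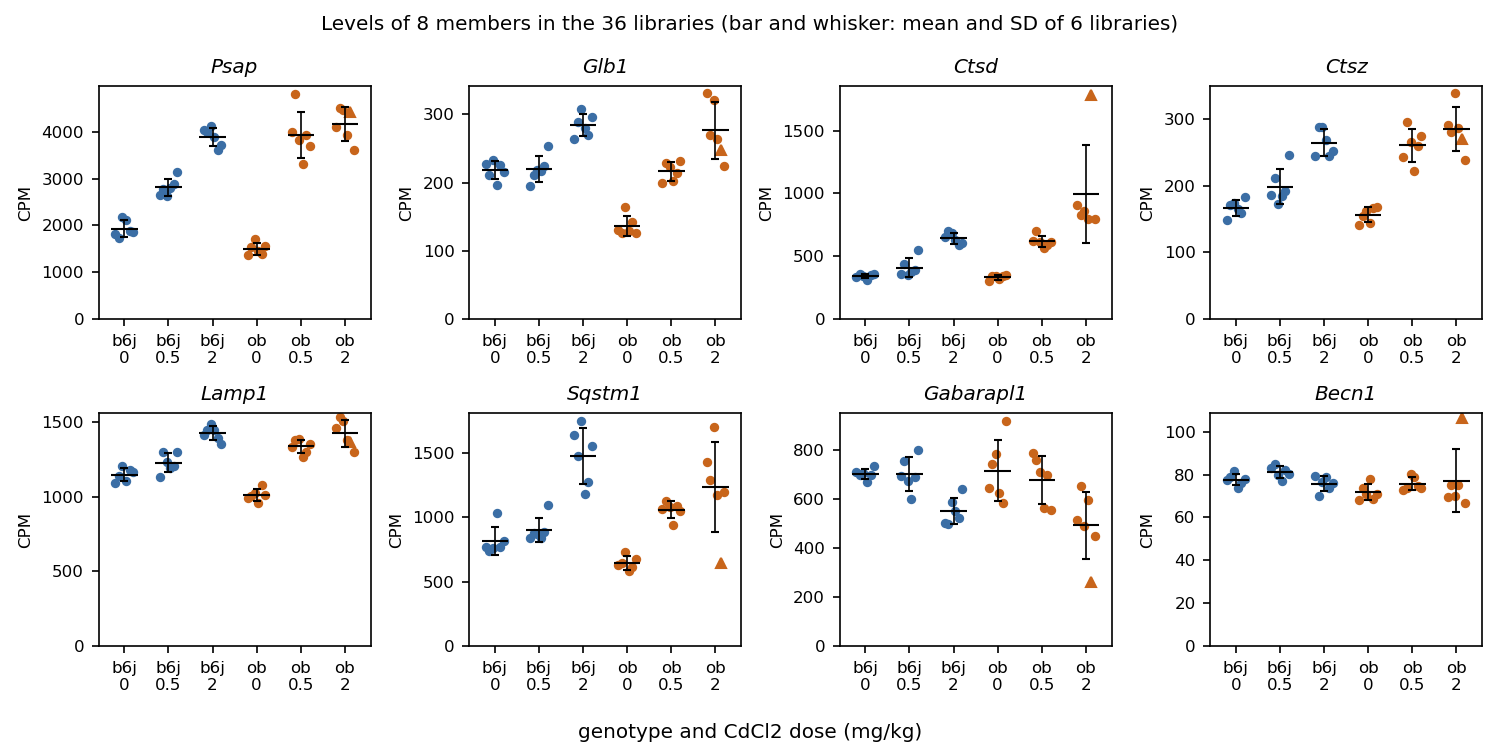
Levels of 8 members in CPM (vertical axis, from 0) in each of the 36 libraries (points) by genotype and dose of CdCl2 (horizontal axis), with the mean and SD of 6 libraries as bar and whisker. Psap, Ctsd, Ctsz, Lamp1 and Glb1 lie higher in all 6 ob libraries at 0.5 mg/kg than in any untreated ob library, Sqstm1 does too, and Becn1 and Gabarapl1 do not.

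Of the lipid-handling and soluble helpers, 3 of 4 were higher for b6j at 2 mg/kg, 2 of 4 for ob at 0.5 mg/kg and 4 of 4 in ob at 2 mg/kg, with 12.3%, 3.55% and 20.4% of all genes called higher. Psap showed the smallest p of the 39 in every comparison with control. It stood at 1736, 1868 and 2183 CPM in untreated b6j, 2631, 2785 and 3133 CPM at 0.5 mg/kg and 3603, 3945 and 4115 CPM at 2 mg/kg, with no overlap between the 3 groups. Levels in ob were 1365, 1498 and 1707 CPM untreated, 3307, 3875 and 4805 CPM at 0.5 mg/kg and 3600.0, 4259 and 4515 CPM at 2 mg/kg, and there the ranges of both doses overlapped. Psap rose 1.46-fold in b6j at 0.5 mg/kg (log2 0.54 ± 0.08, edgeR adjusted p 4.57e-05) and 2.02-fold at 2 mg/kg (log2 1.01 ± 0.08, edgeR adjusted p 3.77e-12). In ob it rose 2.61-fold at 0.5 mg/kg (log2 1.39 ± 0.08, edgeR adjusted p 2.2e-15) and 2.78-fold at 2 mg/kg (log2 1.47 ± 0.08, edgeR adjusted p 1.7e-16). Npc2, which hands cholesterol to the membrane protein NPC1, rose by 0.34 ± 0.07 in b6j at 2 mg/kg and by 0.48 ± 0.07 and 0.63 ± 0.07 in ob at 0.5 and 2 mg/kg. Asah1, acid ceramidase, was called at 2 mg/kg, by 0.31 ± 0.08 in b6j and 0.36 ± 0.08 in ob. At 0.5 mg/kg its changes were 0.11 ± 0.08 and 0.05 ± 0.08. Grn, progranulin, was called only in ob at 2 mg/kg, at 0.58 ± 0.14, and the value without ob_Cd2 replicate 5 was 0.32, also called.

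Among the 7 membrane proteins Lamp1 was called at 3 of the 4 treated points. Lamp1 is a main glycoprotein of the lysosomal membrane. It stood at 1091, 1154 and 1207 CPM in untreated b6j, 1137, 1222 and 1301 CPM at 0.5 mg/kg and 1358, 1433 and 1491 CPM at 2 mg/kg. In ob it stood at 957, 1012 and 1078 CPM untreated, 1269, 1345 and 1387 CPM at 0.5 mg/kg and 1301, 1422 and 1534 CPM at 2 mg/kg. Untreated ob libraries all lay below untreated b6j ones, and treated ob libraries all lay above every untreated library of either genotype. The log2 change was 0.31 ± 0.05 for b6j at 2 mg/kg, 0.40 ± 0.05 for ob at 0.5 mg/kg and 0.49 ± 0.05 in ob at 2 mg/kg. Mcoln1, the calcium channel TRPML1, rose in ob by 0.30 ± 0.05 and 0.19 ± 0.05 and was not called in b6j (0.13 ± 0.05 and 0.02 ± 0.05). Lamp2, Cd63 and Laptm4a, other membrane proteins of lysosomes and late endosomes, were not called in any comparison with control with all libraries. Scarb2, an integral protein of the lysosomal membrane, and Npc1 were called in ob at 2 mg/kg, at 0.85 ± 0.25 and 0.68 ± 0.17. Scarb2 stood at 289.9 CPM in ob_Cd2 replicate 5 and at 52.4 to 71.7 CPM in the other 5 libraries of the group, and Npc1 at 53.2 CPM against 17.5 to 20.9 CPM. Without that library Scarb2 was at 0.14 and not called (edgeR adjusted p 0.192), and Npc1 was at 0.32 and called.

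Of the 11 hydrolases 3 were higher and 1 lower in b6j at 2 mg/kg, where 12.3% and 11.4% of all genes were called. In ob 4 were higher and 0 lower at 0.5 mg/kg, where 3.55% and 0.737% of all genes were called, and 4 were higher and 1 lower at 2 mg/kg, where 20.4% and 18% were called. Glb1 encodes lysosomal beta-galactosidase. It stood at 197, 221 and 233 CPM in untreated b6j, 195, 218 and 254 CPM at 0.5 mg/kg and 264, 284 and 307 CPM at 2 mg/kg. The corresponding ob levels were 127, 129.5 and 164 CPM untreated, 199.5, 219 and 232 CPM at 0.5 mg/kg and 225, 267 and 331 CPM at 2 mg/kg. The untreated ob libraries lay below all others, and at either dose the ob and b6j ranges overlapped. Its log2 change was 0.01 ± 0.08 in b6j at 0.5 mg/kg, 0.38 ± 0.08 for b6j at 2 mg/kg, 0.67 ± 0.08 for ob at 0.5 mg/kg (edgeR adjusted p 2.18e-07) and 1.02 ± 0.08 in ob at 2 mg/kg (edgeR adjusted p 3.86e-12).

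Arsb, arylsulfatase B, which removes sulfate from dermatan and chondroitin sulfate, stood at 103, 115 and 124 CPM in untreated b6j, 159, 172 and 182 CPM at 0.5 mg/kg and 132, 151 and 181 CPM at 2 mg/kg. In ob it stood at 57.3, 71.1 and 81 CPM untreated, 158, 179.9 and 195 CPM at 0.5 mg/kg and 45.8, 148 and 175 CPM at 2 mg/kg, the lowest being ob_Cd2 replicate 5. Apart from that library, every treated library of either genotype lay above the untreated ones of its genotype. The rise in ob at 0.5 mg/kg was 2.55-fold (log2 1.35 ± 0.16, edgeR adjusted p 1.8e-07). In b6j the low-dose change of 0.58 ± 0.16 was not called (edgeR adjusted p 0.144) with all libraries and was called by DESeq2 (adjusted p 0.0419) and without ob_Cd2 replicate 5 (0.58, edgeR adjusted p 1.19e-05). The high-dose change of Arsb was called at 0.44 ± 0.16 in b6j and, with ob_Cd2 replicate 5 included, at 0.91 ± 0.16 in ob. The b6j call was lost without b6j_control replicate 4 (0.43, edgeR adjusted p 0.0574). With 39.9% of its exon bases shared with 2 other gene models on the opposite strand, Arsb has the largest such overlap of the 11.

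Galns, N-acetylgalactosamine-6-sulfatase, which acts on keratan and chondroitin sulfate, was the 1 hydrolase called lower against control with all libraries. Fuca1 was also called lower in b6j at 2 mg/kg without ob_Cd2 replicate 5 (-0.17, edgeR adjusted p 0.0425). Galns stood at 171, 190.4 and 212 CPM in untreated b6j, 149, 160.1 and 184 CPM at 0.5 mg/kg and 135, 144 and 156 CPM at 2 mg/kg. The ob libraries stood at 91.6, 98.2 and 129 CPM untreated and 98.7, 109 and 138 CPM at 0.5 mg/kg, and had a median of 88.3 CPM and a lowest value of 63.6 CPM at 2 mg/kg. Every b6j library at 2 mg/kg lay below every untreated b6j one (log2 -0.40 ± 0.09, edgeR adjusted p 0.00153). In ob at 2 mg/kg the change was -0.23 ± 0.09 (edgeR adjusted p 0.0489), a call that was lost with another scaling (relative log expression: -0.20, edgeR adjusted p 0.0964) and without b6j_control replicate 4 (-0.23, edgeR adjusted p 0.0518).

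Of the other hydrolases, Hexa, the alpha subunit of beta-hexosaminidase, rose at 2 mg/kg by 0.52 ± 0.10 in b6j and 0.58 ± 0.10 in ob. Naglu, which degrades heparan sulfate, and Fuca1, alpha-fucosidase, rose in ob at 0.5 mg/kg by 0.55 ± 0.12 and 0.36 ± 0.07 and were not called at 2 mg/kg, at 0.26 ± 0.12 and 0.04 ± 0.07. Naglu at 2 mg/kg was 0.41 and called without ob_Cd2 replicate 5 (edgeR adjusted p 2.64e-06). Gla, alpha-galactosidase A, was called in ob at 2 mg/kg at 1.04 ± 0.27, with 24.1 CPM in ob_Cd2 replicate 5 and 5.18 to 7.06 CPM in the other 5 libraries, and at 0.46 without it. Gaa, Neu1, Sgsh and Man2b1, which act on glycogen, sialic acid, heparan sulfate and mannose, were not called in any comparison with control with all libraries. Exon bases shared with a gene on the opposite strand made up 12.8% for Hexa and 21.6% for Sgsh.

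The 3 MiT/TFE factors and the genes that start autophagy were not called higher at either dose in either genotype. Tfeb stood at 24.9, 28.4 and 29.9 CPM in untreated b6j, 26.1, 26.9 and 35.9 CPM at 0.5 mg/kg and 24.2, 25.1 and 26.3 CPM at 2 mg/kg. In ob it stood at 23.9, 26.2 and 29.6 CPM untreated, 22.4, 26.9 and 31.3 CPM at 0.5 mg/kg and 18.1, 22 and 24.1 CPM at 2 mg/kg. Tfeb was called once against control, lower in ob at 2 mg/kg (log2 -0.30 ± 0.08, edgeR adjusted p 0.00508), where 4 of 6 libraries lay below every untreated one. At 0.5 mg/kg its change was 0.01 ± 0.08 in b6j and -0.01 ± 0.08 in ob.

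Mitf stood at 12.8, 17.2 and 18.5 CPM in untreated b6j, 14.1, 17 and 18.8 CPM at 0.5 mg/kg and 14.9, 17.4 and 21.5 CPM at 2 mg/kg. Levels in ob were 18, 20.7 and 21.9 CPM untreated, 16.9, 19 and 21.4 CPM at 0.5 mg/kg and 5.86, 17.3 and 23.4 CPM at 2 mg/kg, with overlap throughout and no call against control. Tfe3 had medians of 28.6, 29.6 and 32 CPM in b6j and 26.4, 28.1 and 33.3 CPM in ob from untreated to 2 mg/kg. A single library of each b6j group stood far above, at 143, 154 and 187 CPM, and the standard error of its change was 0.45 in each comparison of 2 groups. No change of Tfe3 was called, and its change in ob at 0.5 mg/kg, 0.20 ± 0.45 (95% interval -0.69 to 1.08), spans the rise of Ctsl, 0.53.

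Wipi1, a phosphoinositide-binding protein of the forming autophagosome, stood at 38.3, 40.3 and 46.3 CPM in untreated b6j, 34.2, 42.7 and 49.2 CPM at 0.5 mg/kg and 33.6, 38.2 and 41.2 CPM at 2 mg/kg. In ob it stood at 27.1, 29.7 and 36.6 CPM untreated, 31.6, 33.3 and 41.8 CPM at 0.5 mg/kg and 26.1, 30.3 and 50.3 CPM at 2 mg/kg. The ranges overlapped across doses in both genotypes. Becn1, of the lipid kinase complex, and Ulk1, the kinase that begins autophagy, were not called against control at either dose, with changes between -0.16 ± 0.13 and 0.12 ± 0.13. Leaving out ob_Cd2 replicate 5, Ulk1 was called lower in b6j at 2 mg/kg, at -0.17 (edgeR adjusted p 0.0152). Becn1 shares 43.9% of its exon bases with Cntd1.

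Sqstm1 was the 1 member of the autophagosome group called higher. It encodes p62, a receptor that ties ubiquitinated cargo to ATG8 proteins. Its levels were 736, 768 and 1029.5 CPM in untreated b6j, 835, 874 and 1089.7 CPM at 0.5 mg/kg and 1180.1, 1510.0 and 1748 CPM at 2 mg/kg. In ob they were 578, 635 and 726 CPM untreated, 935, 1073 and 1127 CPM at 0.5 mg/kg and 642, 1241 and 1695 CPM at 2 mg/kg, where the lowest was ob_Cd2 replicate 5 and the other 5 lay at 1168 CPM or above. In ob all libraries at 0.5 mg/kg were above all untreated ones, and in b6j the low-dose range overlapped the untreated one. Sqstm1 rose by 0.86 ± 0.13 in b6j at 2 mg/kg (edgeR adjusted p 5.77e-06), by 0.72 ± 0.13 in ob at 0.5 mg/kg (edgeR adjusted p 0.000387) and by 0.94 ± 0.13 in ob at 2 mg/kg (edgeR adjusted p 6.94e-07). In b6j at 0.5 mg/kg the change was 0.15 ± 0.13. Sqstm1 shares 17.3% of its exon bases with Mrnip on the opposite strand.

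The ATG8 genes, whose products sit on the autophagosome membrane, were not called higher at any dose. Gabarapl1 stood at 671, 703 and 737 CPM in untreated b6j, 602, 693 and 802 CPM at 0.5 mg/kg and 499, 538 and 640.1 CPM at 2 mg/kg. The corresponding ob levels were 584, 693 and 919 CPM untreated, 555, 704 and 789 CPM at 0.5 mg/kg and 261, 501 and 654 CPM at 2 mg/kg. In b6j every library at 2 mg/kg was below every untreated one, with a change of -0.35 ± 0.13 (edgeR adjusted p 0.0511), called with DESeq2 and without ob_Cd2 replicate 5 (-0.36, edgeR adjusted p 0.00379). In ob at 2 mg/kg the change was -0.54 ± 0.13 (edgeR adjusted p 0.00167). Map1lc3b, which encodes LC3B, stood at 191, 196 and 202 CPM in untreated b6j, 190.0, 201 and 243 CPM at 0.5 mg/kg and 184, 191 and 195 CPM at 2 mg/kg. In ob it stood at 191, 213 and 234 CPM untreated, 186, 209.7 and 227 CPM at 0.5 mg/kg and 174, 189.5 and 318 CPM at 2 mg/kg, the last being ob_Cd2 replicate 5. No change of Map1lc3b or Gabarap was called with all libraries, and without that library Map1lc3b in ob at 2 mg/kg was called at -0.19 (edgeR adjusted p 0.00888).

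Of the 39, 10 were lower and 2 higher in untreated ob than in untreated b6j, with 8.93% of all genes tested called lower and 6.6% higher. The median log2 difference was -0.12 for the members and 0.03 for all genes. Of the 10, 7 were hydrolases, led by Galns (-0.90 ± 0.09, 1.87-fold lower, edgeR adjusted p 9.54e-09), Glb1 (-0.68 ± 0.08, 1.60-fold lower, edgeR adjusted p 1.01e-07) and Arsb (-0.70 ± 0.16, 1.63-fold lower, edgeR adjusted p 0.00158). The differences of Psap, Wipi1 and Lamp1 were -0.36 ± 0.08, -0.43 ± 0.11 and -0.18 ± 0.05. Hexa and Laptm4a were higher, by 0.32 ± 0.10 and 0.21 ± 0.05. In 9 members every untreated ob library lay below every untreated b6j one, and 7.93% of all genes tested were separated in that way. With library size alone 6 members were higher and 5 lower: Galns, Glb1, Arsb, Psap and Wipi1 kept their calls as lower, Lamp1 (-0.05), Naglu, Fuca1, Man2b1 and Gaa lost theirs, and the member median was 0.02 with an all-gene median of 0.16. Without ob_Cd2 replicate 5 the counts were 4 higher and 14 lower, with 11.8% and 14.2% of all genes called, and without b6j_control replicate 4 Man2b1 and Gaa were not called. Markers of several cell types also differed between the untreated groups. In ob 5 of 5 podocyte markers and 4 of 6 endothelial markers were higher (median log2 differences 0.59 and 0.48), 2 of 10 proximal tubule markers were lower, and the summed proximal tubule markers (14940.2 to 17667 CPM) lay below the b6j range (18715 to 20595 CPM). Their part in the genotype difference was not tested.

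The response to 0.5 mg/kg differed between genotypes for 4 members, all with the larger change in ob, and 0 with the smaller. Of all genes tested 0.369% were called with the larger and 0.0165% with the smaller response in ob. The difference of log2 changes, ob minus b6j, was 0.84 ± 0.11 for Psap (95% interval 0.63 to 1.06, edgeR adjusted p 3.36e-05), 0.66 ± 0.11 for Glb1 (0.44 to 0.88, edgeR adjusted p 0.00134), 0.49 ± 0.12 for Ctsz (edgeR adjusted p 0.0448) and 0.30 ± 0.07 for Lamp1 (edgeR adjusted p 0.0434). Those of Ctsz and Lamp1 were lost without b6j_control replicate 4 (edgeR adjusted p 0.0714 and 0.0575) and with library size alone (0.40 and 0.21). The median difference over the 39 was 0.13, with -0.01 over all genes (library size alone: 0.04 and -0.10). Without ob_Cd2 replicate 5 the count was 11 higher and 0 lower, with 1.1% and 0.283% of all genes called, the 7 further genes being Ctsa, Ctsd, Ctsl, Sqstm1, Naglu, Arsb and Npc2, with differences of 0.34 to 0.76. With all libraries Ctsd had 0.64 ± 0.19 and Sqstm1 0.57 ± 0.18, neither called. For Tfeb the difference was -0.02, with a 95% interval from -0.25 to 0.21, and for Map1lc3b -0.10, from -0.36 to 0.16. Each response is read against the untreated group of its own genotype, and the untreated levels of Psap, Glb1 and Lamp1 were lower in ob. Cadmium response markers differed in the same direction at this dose, with a larger change in ob for 2 of 3, Mt1 (1.10 ± 0.19) and Hmox1 (3.27 ± 0.23), and 3-gene sums of 2542 to 3952 CPM in ob against 1262 to 1968 CPM in b6j. Their part in the genotype difference of the members was not tested.

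**Figure D3:**
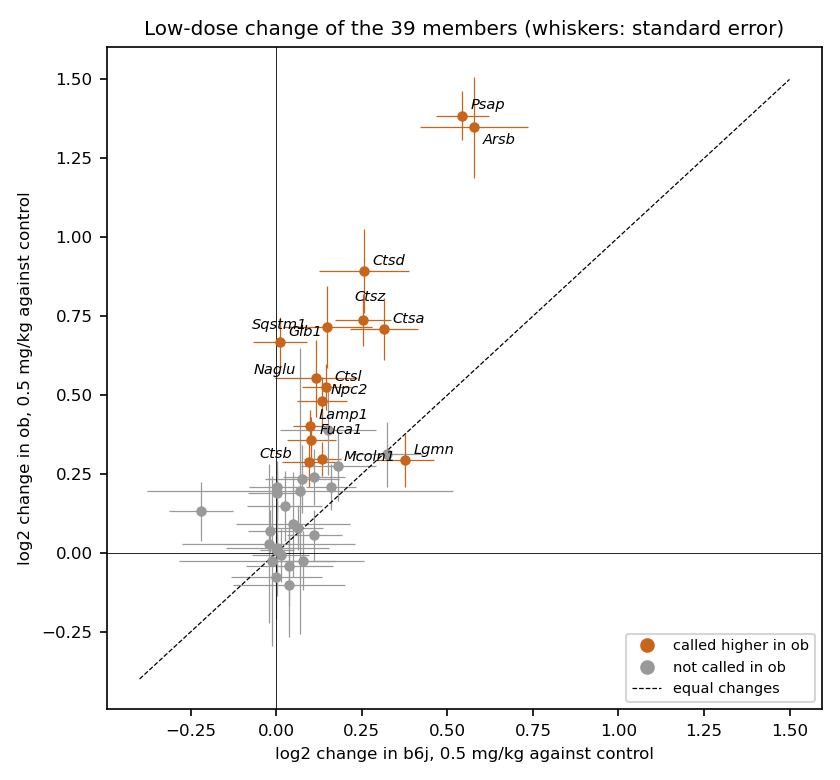
The log2 change at 0.5 mg/kg against control in b6j (horizontal axis) and in ob (vertical axis) for the 39 genes, with standard errors as whiskers, orange for those called higher in ob, and a dashed line where both changes are equal. Psap and Glb1 stand farthest from the line among the 4 whose difference was called, and Lgmn lies just below it.

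At 2 mg/kg 3 members had the larger rise in ob and 0 the smaller, with 1.06% and 1.01% of all genes called in those directions and 2.07% in all. They were Ctsd (0.67 ± 0.19, edgeR adjusted p 0.0479), Glb1 (0.64 ± 0.11, edgeR adjusted p 0.00128) and Psap (0.46 ± 0.11, edgeR adjusted p 0.0204). Leaving out ob_Cd2 replicate 5, the difference of Ctsd was 0.43 and called, and with library size alone it was 0.57 and not called. Without that library the count was 5 higher and 0 lower, with 2.2% and 1.93% of all genes called, and included Arsb at 0.66 and Naglu at 0.30. Sqstm1, at 0.08, had a 95% interval from -0.28 to 0.44.

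Set side by side at the same dose, ob and b6j kidneys were compared directly in 2 contrasts added after the data were seen. At 0.5 mg/kg 8 members were higher in ob and 1 lower, with 4.58% of all genes called higher and 5.06% lower, or 9.64% in all. Psap (0.48 ± 0.08), Ctsl (0.42 ± 0.07), Ctsd (0.59 ± 0.13) and Ctsz (0.39 ± 0.08) were higher and Galns was lower (-0.55 ± 0.09). Glb1, lower in ob without cadmium, was at -0.02 ± 0.08, and Arsb at 0.07 ± 0.16. The comparison at 2 mg/kg had 8 higher and 3 lower, with 7.9% and 8.53% of all genes called. Psap was at 0.10 ± 0.08 and Lamp1 at -0.00 ± 0.05 there, neither called, and Galns was lower at -0.73 ± 0.09. Without ob_Cd2 replicate 5 the counts were 11 higher and 4 lower at 0.5 mg/kg (8.51% and 10.7% of all genes) and 6 higher and 3 lower at 2 mg/kg (6.32% and 8.89% of all genes). In the latter Scarb2 (0.04), Cd63 (0.15), Npc2 (0.13) and Sgsh (-0.26) were no longer called, and Ctsd was at 0.39 with the library left out and at 0.63 with it.

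Between the doses, 8 members were higher and 1 lower at 2 than at 0.5 mg/kg in b6j, with 8.78% of all genes called higher and 8.51% lower. Sqstm1 (0.71 ± 0.13), Ctsd (0.65 ± 0.13), Psap (0.47 ± 0.08), Ctsz (0.41 ± 0.08), Glb1 (0.37 ± 0.08), Ctsl (0.23 ± 0.07), Lamp1 (0.22 ± 0.05) and Npc2 (0.21 ± 0.07) were higher and Fuca1 lower (-0.27 ± 0.07). Library size alone gave 11 higher and 0 lower, and without ob_Cd2 replicate 5 there were 12 higher and 5 lower, with 13.5% and 15.1% of all genes called (28.7% in all). In ob 7 were higher and 10 lower, with 15.2% of all genes called higher and 14.5% lower. Ctsd (0.69 ± 0.13) and Glb1 (0.35 ± 0.08) were higher. Neu1 (-0.48 ± 0.11), Gabarapl1 (-0.46 ± 0.13), Arsb (-0.44 ± 0.16), Galns (-0.36 ± 0.09), Fuca1 (-0.32 ± 0.07) and Tfeb (-0.29 ± 0.09) were among the lower. Psap was at 0.09 ± 0.08, not called. Library size alone turned the split to 15 higher and 4 lower, relative log expression to 8 and 8, and a fit to the 2 groups alone gave 3 higher and 0 lower. With ob_Cd2 replicate 5 left out it was 7 and 10, with 13.4% and 14.3% of all genes called, and with Scarb2 (0.12), Lamp2 (-0.13) and Ctsh (-0.15) no longer called, Sqstm1 called at 0.38, and Ctsd at 0.46, Gla at 0.49, Npc1 at 0.24, Ctsb at 0.15 and Arsb at -0.24.

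Beyond the 39, 110 other genes of the same pathways were tested, of 111 listed. In ob at 0.5 mg/kg 16 (14.5%) were higher and 0 lower (library size alone: 7 and 3), where 3.55% of all genes were called higher, and in b6j at that dose 0 were called in either direction. Further lysosomal enzymes gave 6 of the 16, among them Gm2a, the activator of GM2 ganglioside breakdown (0.71 ± 0.07). Igf2r, which sorts enzymes with mannose 6-phosphate to lysosomes, rose by 0.56 ± 0.09. Of 15 subunits or partners of the V-ATPase, the proton pump that acidifies lysosomes, 3 were higher: Atp6v0d1 (0.30 ± 0.06), Atp6v0c (0.26 ± 0.06) and Atp6ap2 (0.22 ± 0.05). Of 25 other core autophagy genes 1 was called, Ambra1 at 0.24 ± 0.07. Genotypes differed in the low-dose response for genes including Gm2a (0.53 ± 0.10) and Galc (0.35 ± 0.08), each larger in ob.

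With 2 mg/kg in b6j 20 of the 110 (18.2%) were higher and 19 (17.3%) lower (library size alone: 30 and 11), where 12.3% and 11.4% of all genes were called. In ob, with ob_Cd2 replicate 5 included, 32 (29.1%) were higher and 19 (17.3%) lower, where 20.4% and 18% of all genes were called. Of the 26 further lysosomal enzymes 10 were higher and 0 lower in b6j and 13 higher and 2 lower in ob, with Gm2a at 0.47 ± 0.07 and 0.78 ± 0.07. Of the 25 autophagy genes 2 were higher and 9 lower in b6j and 4 higher and 8 lower in ob. Vamp8, a fusion protein of autophagosome and lysosome, was at -0.54 ± 0.09 in b6j and -0.65 ± 0.09 in ob, and Atg3, which joins ATG8 proteins to lipid, at -0.44 ± 0.07 and -0.31 ± 0.07. V-ATPase genes gave 2 higher and 5 lower in b6j and 5 higher and 2 lower in ob, other membrane and sorting genes 3 higher and 0 lower and 6 higher and 1 lower, other autophagy receptors 1 and 0 and 1 and 1, and mTORC1 and nutrient-sensing genes 2 and 5 and 3 and 5. In untreated kidneys 3 of the 110 were higher and 27 lower in ob than in b6j (library size alone: 21 and 14), among them Gusb (-1.18 ± 0.10), Galc (-0.54 ± 0.06) and Map1lc3a (-0.64 ± 0.10).

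**Figure D4:**
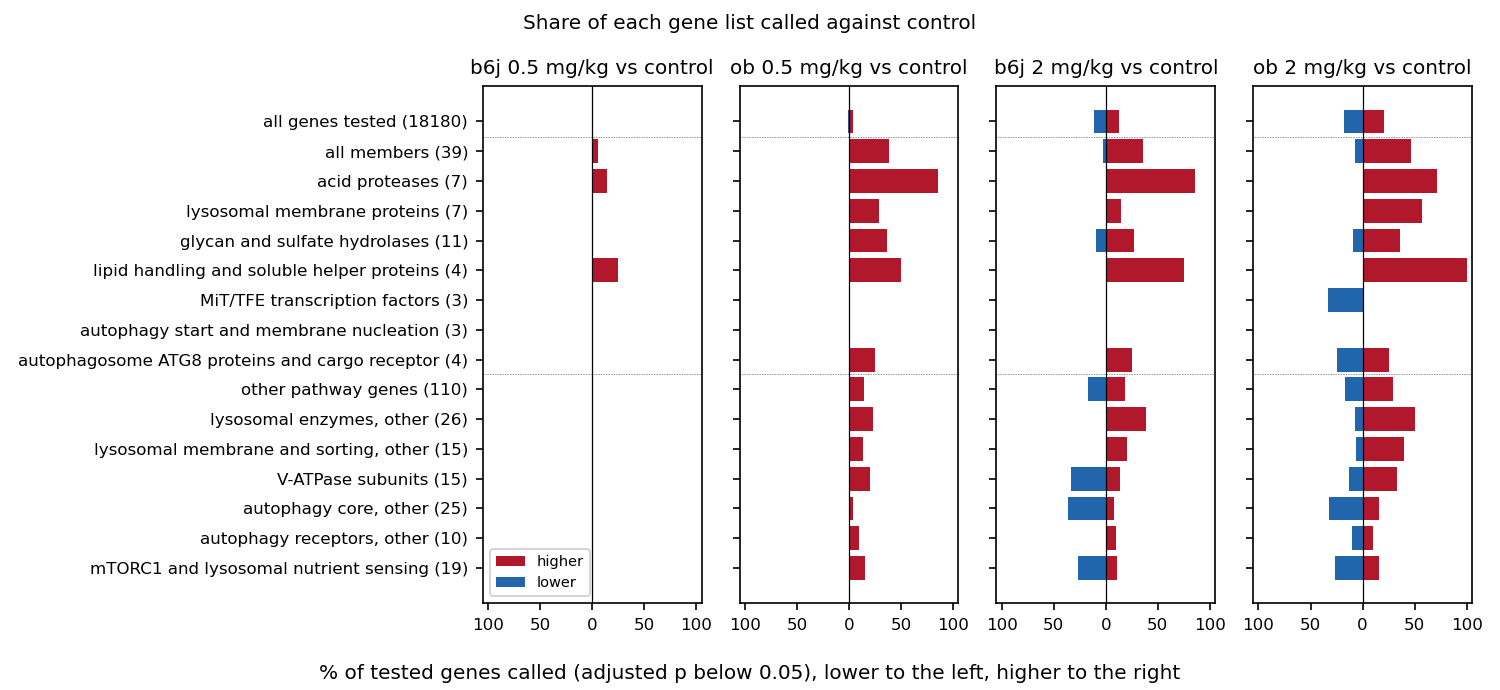
Share of tested genes called higher (red, to the right) and lower (blue, to the left) against control, in percent (horizontal axis), for each role group of the 39, for the other pathway genes and for all genes tested (vertical axis, with the number tested). The acid proteases reach 6 of 7 higher for b6j at 2 mg/kg and for ob at 0.5 mg/kg, while the MiT/TFE and autophagy-start groups have none higher.

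Lysosomal transcripts are abundant in macrophages, and markers of these cells moved with the high dose. The 15 macrophage markers summed to 189 to 220.2 CPM (median 198) in untreated b6j, 160.4 to 254 CPM (median 198) at 0.5 mg/kg and 233 to 326 CPM (median 293) at 2 mg/kg. In ob they summed to 178 to 206 CPM (median 195) untreated, 152 to 206 CPM (median 196) at 0.5 mg/kg and 191 to 537 CPM (median 328) at 2 mg/kg. None of the 15 was called at 0.5 mg/kg in either genotype, with median log2 changes of 0.15 in b6j and 0.10 in ob. The high dose had 13 of 15 higher in b6j, and in ob 12 were higher and 1, Csf1r at -0.56, lower. The part of macrophages in the change of the members was not tested at either dose. Trem2 was the 1 macrophage marker at 0 in any library. The 10 proximal tubule markers summed to medians of 19961, 19827 and 13747 CPM in b6j and 15965, 15997 and 10621 CPM in ob from untreated to 2 mg/kg, and the ranges at 0.5 mg/kg (19243 to 22479.9 CPM in b6j, 15542 to 17899.9 CPM in ob) overlapped the untreated ones (18715 to 20595 CPM and 14940.2 to 17667 CPM). None of them was called at 0.5 mg/kg. At 2 mg/kg the sums ranged from 11010.1 to 15253 CPM in b6j and from 2021 to 12730.0 CPM in ob, below every untreated library of the genotype, and 2 of 10 markers were called lower in b6j and 5 of 10 in ob. The 7 tubular injury markers summed to medians of 349, 353 and 526 CPM in b6j and 316, 327 and 814 CPM in ob, with 1 called higher in ob at 0.5 mg/kg, Havcr1 at a log2 change of 4.17. At 2 mg/kg 4 of 7 injury markers were higher in b6j and 7 of 7 in ob. In ob at that dose 7 of 7 tested collecting duct, 6 of 6 endothelial, 4 of 5 podocyte, 3 of 4 distal convoluted tubule and 2 of 5 thick ascending limb markers were lower. These ob calls include ob_Cd2 replicate 5. Single libraries of that group stood far out: the highest injury sum was 4924 CPM. The lowest distal convoluted tubule and thick ascending limb sums were 119 and 1093 CPM, against medians of 1181 and 3782 CPM. Podocyte sums of the group did not spread so far, at 187 to 251 CPM with a median of 232 CPM. In b6j 3 of 4 distal convoluted tubule and 1 of 7 collecting duct markers were lower. At 0.5 mg/kg in ob 2 of 5 podocyte and 1 of 7 collecting duct markers were lower, and in b6j none of these lists had a call. The part of these changes in those of the 39 was not tested.

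**Figure D5:**
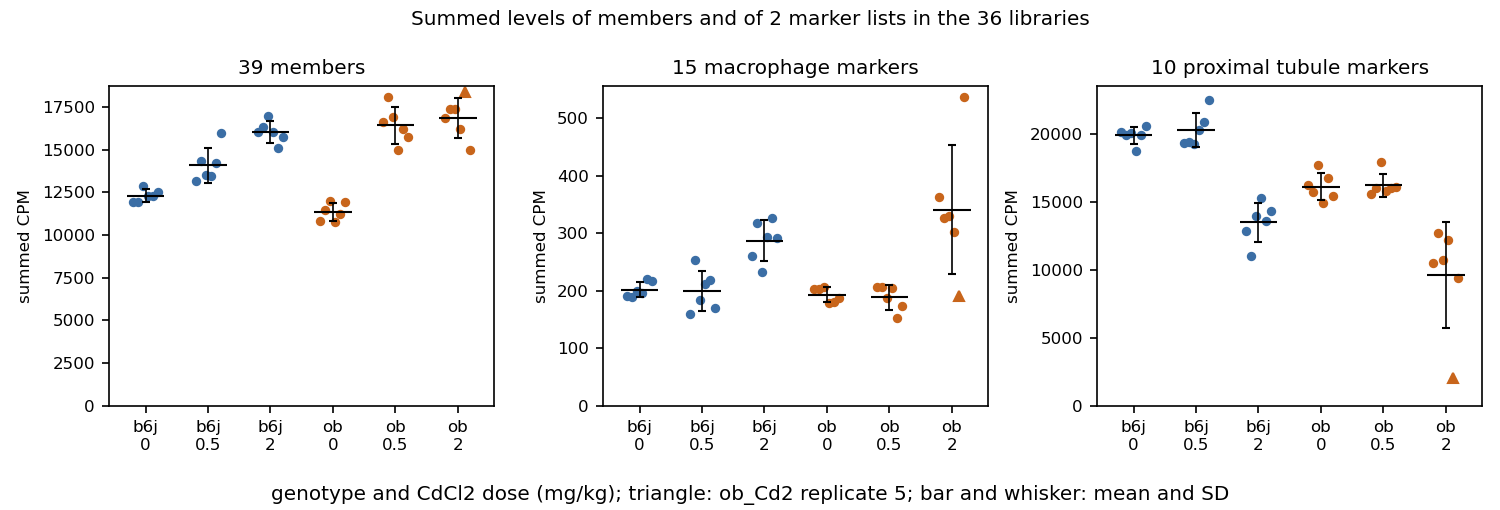
Summed CPM (vertical axes, from 0) of the 39 genes, of 15 macrophage markers and of 10 proximal tubule markers in the 36 libraries (points) by genotype and dose, with mean and SD as bar and whisker and ob_Cd2 replicate 5 as a triangle. At 0.5 mg/kg the sum of the 39 genes lay above the untreated range in both genotypes, and both marker sums overlapped theirs.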

How the data were processed

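RNA from 36 snap-frozen kidney samples, 6 per group, was sequenced, with bcl2fastq, Trimmomatic, FastQC, STAR and GRCm38 named in the submitters' processing notes. The authors deposited whole-number read counts per gene for each library, made with featureCounts 1.4.6-p2 on Ensembl 96 gene models with no strand option, per the file headers. A joined table of the same series with 36 columns was not used here.

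From the deposited counts, genes with low counts were removed with edgeR's filterByExpr over the 6 groups, which left 18180 genes, and libraries were scaled by TMM (factors 0.892 to 1.12). Group differences came from edgeR 4.0.16 (R 4.3.3) with a quasi-likelihood test on all 36 libraries (common dispersion 0.0489), Benjamini-Hochberg adjustment over all genes tested and a threshold of 0.05. Standard errors come from that fit, and 95% intervals are 1.96 standard errors to each side. CPM, RPKM and log2 changes were computed here with the TMM factors, RPKM also with the exon length in the file. Counting intervals and the level of 3 reads cover counting error only. The test was checked on simulated counts.

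The 39 members and the role, pathway and marker lists were chosen with earlier results of these data known. Levels are given for the members called at a dose with the 4 smallest p in each direction. The member of each role group with the smallest p is included. Sqstm1, Map1lc3b, Gabarapl1, Tfeb, Tfe3, Mitf, Lamp1, Ctsd, Ctsl and Wipi1 were included in any case. 1 of the 111 pathway symbols, Tmem55b, matched no gene. The comparisons of ob with b6j at each dose were added after seeing the data. Promoter windows came from RefSeq (GRCm38.p6) and were matched by symbol for 33 of 39 members. Alternatives were DESeq2 1.42.0, limma 3.58.1 (voom), other scalings and filters, the compared groups alone, a replicate block and the removal of ob_Cd2 replicate 5 or b6j_control replicate 4.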

Additional observations from a re-analysis of the deposited data

Results flagged for a closer look

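Single libraries stood apart from the other 5 of their group by Dixon's criterion in 12 of 96 groups of 6 libraries checked, where chance gives about 1 in 20. Of the 12, 4 were ob_Cd2 replicate 5, at 1781 CPM for Ctsd, 925 CPM for Ctsl, 318 CPM for Map1lc3b and 50.3 CPM for Wipi1. Tfe3 stood apart in 1 library of each b6j group, at 143 CPM in b6j_control replicate 5, 154 CPM in b6j_Cd0.5 replicate 3 and 187 CPM in b6j_Cd2 replicate 2. Sqstm1 was at 1029.5 CPM in b6j_control replicate 4 and 1089.7 CPM in b6j_Cd0.5 replicate 6. The latter library also held the high Tfeb value of 35.9 CPM. Wipi1 was at 41.8 CPM in ob_Cd0.5 replicate 3, and Galns at 129 CPM in ob_control replicate 3.

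The response to cadmium differed between genotypes by the test of that difference for 4 members at 0.5 mg/kg and 3 at 2 mg/kg. As ob minus b6j on the log2 scale, the low-dose values were 0.84 for Psap, 0.66 for Glb1, 0.49 for Ctsz and 0.30 for Lamp1. The high-dose values were 0.67 for Ctsd, 0.64 for Glb1 and 0.46 for Psap.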

How the results depend on the processing

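No member called with all libraries changed sign under any alternative. Counts of called members moved by more than 1.5 times as follows. With library size alone, the genotype difference in the low-dose response was called for 2. With no filter on low counts, 1 was called in b6j at 0.5 mg/kg, 2 for the genotype difference at 0.5 mg/kg and 1 for that at 2 mg/kg. With limma's voom, 19 were called between the untreated groups, 4 in b6j at 0.5 mg/kg, 23 in b6j at 2 mg/kg, 19 in b6j between the doses, 23 for the low dose in ob, 14 and 7 for the genotype difference at 0.5 and 2 mg/kg, and 18 between ob and b6j at 0.5 mg/kg. With the compared groups alone, 25 were called in b6j at 2 mg/kg, 17 in b6j between the doses, 3 in ob between the doses, 11 for the genotype difference at 0.5 mg/kg and 2 between ob and b6j at 2 mg/kg. Without ob_Cd2 replicate 5, 4 were called in b6j at 0.5 mg/kg, 17 in b6j between the doses, 11 and 5 for the genotype difference at 0.5 and 2 mg/kg, and 15 between ob and b6j at 0.5 mg/kg. Without b6j_control replicate 4, 1 was called in b6j at 0.5 mg/kg and 2 for the genotype difference there. Between ob and b6j at 0.5 mg/kg leaving out either library gave 8 to 15. ob_Cd2 replicate 5 belongs to none of the groups compared at 0.5 mg/kg or within b6j. It enters those comparisons only through the filter, scaling and spread shared by all 36 libraries. For Ctsd, for example, the genotype difference at 0.5 mg/kg was 0.64 with it and 0.63 without it. The causes of the other moves were not tested.

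Of 176 single-gene values, relative log expression kept 173 on the same side of the threshold, voom 156 and the stricter filter 172. No filter on low counts kept 164, with 12 lost. Library size alone kept 159, with 9 newly called and 8 lost. The compared groups alone kept 152, with 14 newly called and 10 lost. DESeq2 kept 156, with 7 newly called and 2 lost, and gave no adjusted p for the rest. Replicate numbers did not pair the samples: same-numbered libraries of different groups had a median correlation of deviations of 0.00849 over 90 pairs, with 5 above 0.1. With the replicate block 9 members were lower and 2 higher in untreated ob, 2 were called in b6j at 0.5 mg/kg, 13 higher and 2 lower in b6j at 2 mg/kg, 15 higher in ob at 0.5 mg/kg, 18 higher and 3 lower for the high dose in ob, and 3 and 2 for the genotype differences. Gla, the least abundant member per length, stood at 2.55 CPM or above, with 3 reads worth at most 0.112 CPM. Whether depth limited its calls was not tested.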
